A study of Mus musculus with 8 samples.

Results

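The genes described here encode the translation initiation and elongation factors of the mouse. They were taken as every protein-coding gene of the count table whose symbol begins with Eif1 to Eif6 or with Eef1 or Eef2, and 68 of the 54532 genes fitted this rule. Of these, 62 had at least 20 counts summed over the 8 libraries and are described, and 59 passed the filter on low counts and were tested among 9855 genes. The rule used names only and no measured value. It also takes in genes that act on the factors, such as the kinases of eIF2α and the methyltransferases of eEF1A and eEF2, and the exon junction helicase Eif4a3.

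The 3′ mRNA-seq counts came from epithelial cells of the intestine on lactation day 5, with 4 WT and 4 Rank-knockout libraries. RANK is the receptor activator of NF-κB, and its gene has the symbol Tnfrsf11a. In the mice of the study the floxed gene was deleted by a Cre driven from the Villin1 promoter, which is active in the intestinal epithelium, so other cells in a preparation would keep the gene. Per the study's methods the lines were kept on C57BL/6J, the females of both genotypes were littermates, and they were mated to wild-type males. The labels name no other allele, treatment or age. The comparison asks how the epithelial transcriptome differs without RANK in a lactating mouse.

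Translation starts when eIF2 carries the initiator methionyl-tRNA to the small ribosomal subunit, where eIF3 is the large scaffold and eIF1, eIF1A and eIF5 control the choice of the start codon. The eIF4F complex of eIF4E, eIF4G and eIF4A brings the capped mRNA, eIF5B joins the large subunit, and eEF1 and eEF2 then deliver each aminoacyl-tRNA and move the ribosome along. The intestinal epithelium renews itself within days from dividing crypt cells and makes large amounts of protein.

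Libraries held between 1530781 and 4335653 counts, with WT replicate 2 and Rank-knockout replicate 1 the deepest. Counts of the targeted gene Tnfrsf11a were 113, 196, 61 and 111 in WT and 128, 112, 79 and 179 in Rank-knockout. Scaled to CPM, its level was 41.7 to 77.4 in WT and 27.2 to 47.2 in Rank-knockout, with overlapping libraries, and the gene was called lower (log2 fold change -0.67, SE 0.22, edgeR adjusted p = 0.0321). Since 3′ tags need not lie in the deleted part, these values do not check the labels. With 1 tag per transcript, the number of tags does not grow with transcript length, and CPM, the counts scaled to a common library size after TMM adjustment, are compared between genes without division by length. Levels below are in CPM, and a log2 fold change is Rank-knockout minus WT with its standard error (SE). The groups are 4 libraries each, and values of libraries are given in the order of replicates 1 to 4.

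More translation factor genes were higher in Rank-knockout than lower. With edgeR and an adjusted p under 0.05, 29 of the 59 tested genes were higher, 1 was lower and 29 were not called. Without WT replicate 4 the number higher was 19, and with library totals 41 were higher and 0 were lower. Over all tested genes 15.8% were higher and 14.6% were lower. The median log2 fold change was 0.52 over the translation factors, from -0.57 to 1.19, beside 0.02 over all tested genes, and 53 of the 59 values were positive. Rank-knockout libraries lay wholly above the WT libraries for 24 of the 59 genes, where the background over all tested genes was 14.4%, and wholly below for 1 gene, where it was 14.3%. The 6 genes that rose by 2-fold or more were Eif3j1, Eef1akmt4, Eif2s3x, Eef2kmt, Eef1g and Eif2b3.

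**Figure D1:**
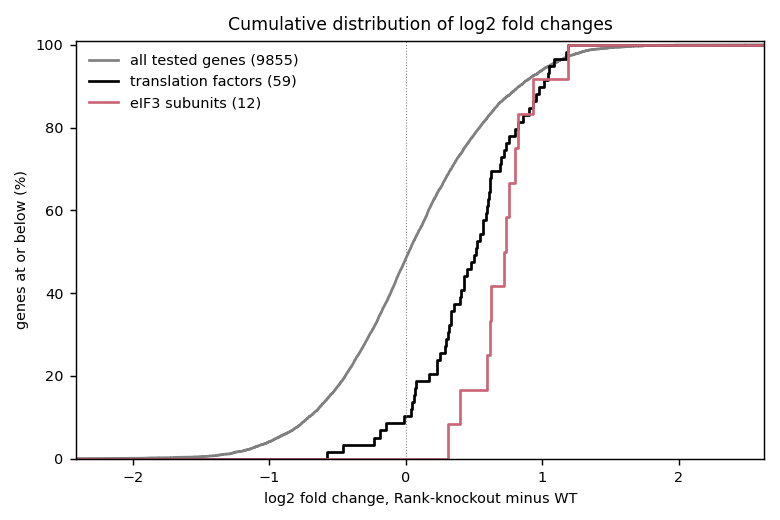
Cumulative share of genes (%) against the log2 fold change, Rank-knockout minus WT, for all 9855 tested genes (grey), the 59 tested translation factor genes (black) and the 12 tested eIF3 subunit genes (red). The black curve lies to the right of the grey one up to about 1 on the axis, with medians of 0.52 and 0.02, and all 12 eIF3 values are above 0.

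Markers of the villus and of the cell cycle moved with the genotype, as the counts above did. All 12 of 12 villus enterocyte markers were lower in Rank-knockout, with a summed level of 19118 to 26629 CPM in WT and 9121 to 11720 CPM in Rank-knockout. All 16 of 16 replication and cell cycle genes were higher, with a summed level of 497 to 778 CPM in WT and 1106 to 1912 CPM in Rank-knockout. Of the 6 goblet cell markers 4 were lower and 1 was higher (12914 to 17207 CPM against 6971 to 9650 CPM). Of the 6 Paneth cell markers 3 were higher (2091 to 4464 CPM against 2896 to 9329 CPM). The Paneth markers not called, Defa17, Lyz1 and Defa24, had log2 fold changes of 1.29, 1.21 and 1.12. Over all tested genes 15.8% were higher and 14.6% were lower. The epithelial markers, from which Epcam, Vil1 and Krt20 were lower and Krt19 higher, summed to 11271 to 12379 CPM and 8683 to 11069 CPM. Transcripts of the epithelium were thus present in every library. Markers of T cells, of plasma and B cells and of stroma or muscle summed to at most 47.9, 95.2 and 18.8 CPM in any library, and Cd79a was at 0. The part of these shifts in the values of the translation factors was not tested. In bulk samples, fewer cells of a type and less of their RNA per cell cannot be told apart.

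**Figure D2:**
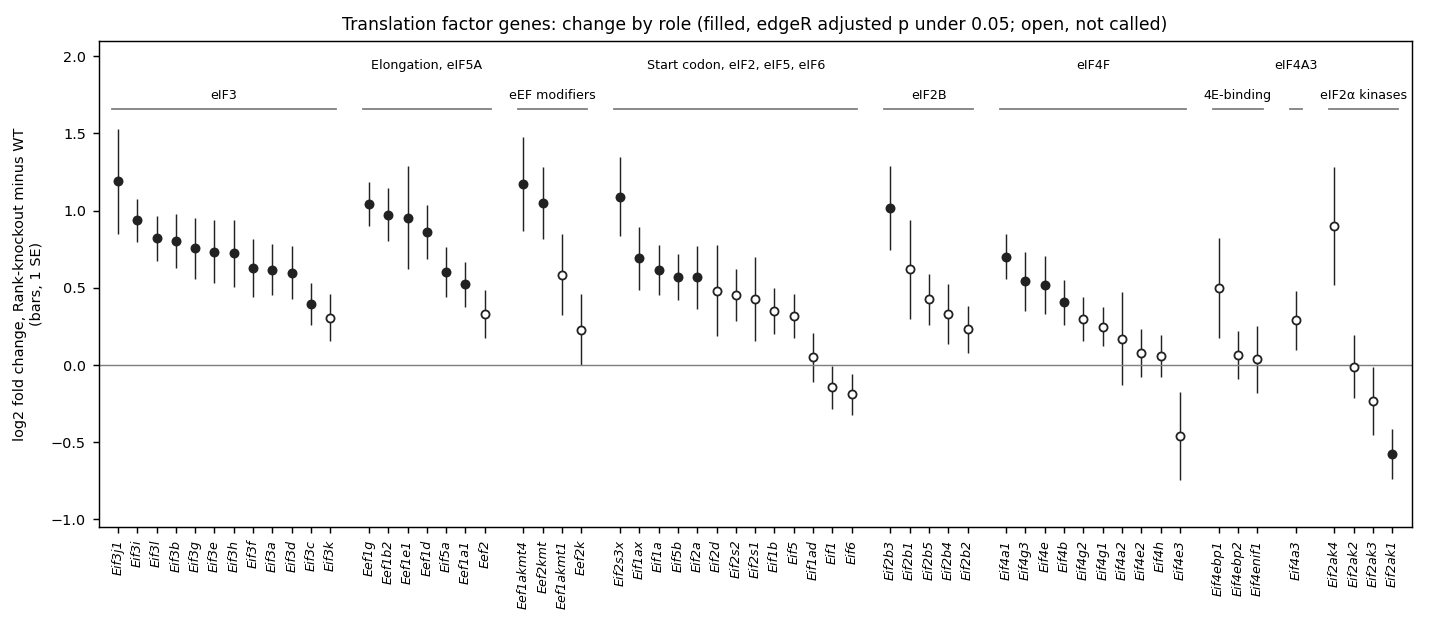
Log2 fold change, Rank-knockout minus WT (vertical axis, bars 1 SE), for each of the 59 tested translation factor genes, grouped by role and ordered by size. Filled points passed an edgeR adjusted p of 0.05. Of the 12 eIF3 genes 11 are filled and above 0, and the only filled point below 0 is Eif2ak1 at -0.57.

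Mouse mRNAs for ribosomal proteins and several translation factors are known to begin with a pyrimidine tract that ties their translation to mTORC1, and CACGTG is the E-box bound by MYC and related factors. Windows of 300 bases around the RefSeq start of each gene (GRCm38.p6; 250 before and 50 after) were found for 49 of the 62 described genes. The E-box CACGTG, which reads the same on both strands, was present in 10 of the 49 windows, or 20.4%, and in 7.24% of the windows of all 27025 genes and 10.8% of those of 7680 tested genes. It was present in 6 of 24 windows of genes not called and in 4 of 22 of genes called higher. A tract of a C followed by at least 4 bases that are each C or T, starting within 10 bases of the RefSeq start, was present in 15 of 49 windows, or 30.6%, beside 30.8% of all genes and 32% of tested genes. So loose a rule matches many genes, so a match is a description of these letters only, and control by mTORC1 was not tested. For a gene with several RefSeq starts the one farthest upstream was used. To show what these starts look like, the window from 60 bases before to 20 bases after the start is given for the 4 genes with the highest level among those that rose and had a window, with a pyrimidine tract in capitals where one was found.
Eef1b2 chr1:63176771-63176850 plus: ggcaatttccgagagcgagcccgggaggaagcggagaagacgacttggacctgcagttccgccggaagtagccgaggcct
Eif5b chr1:37997950-37998029 plus: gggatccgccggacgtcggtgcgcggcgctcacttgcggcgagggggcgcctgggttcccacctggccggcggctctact
Eif3a chr19:60790674-60790753 minus: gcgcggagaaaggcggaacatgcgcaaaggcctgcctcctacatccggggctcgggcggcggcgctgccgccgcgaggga
Eif3f chr7:108934355-108934434 plus: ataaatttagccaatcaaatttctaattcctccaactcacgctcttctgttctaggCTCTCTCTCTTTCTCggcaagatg
Eif3f alone of these carries a tract, which begins 4 bases before the annotated start and is 15 bases long. The windows of the 4 genes that rose and hold the E-box are given next, with 10 bases on either side and the E-box in capitals, since they show how differently it is placed.
Eef1akmt4 chr16:20611499-20611524 plus: acggaagttcCACGTGtttgtgtgga
Eif3a chr19:60790656-60790681 minus: gcgagggaatCACGTGgttccttcct
Eif3f chr7:108934337-108934362 plus: agatatgattCACGTGgtataaattt
Eif4a1 chr11:69672597-69672622 minus: atcgcctccgCACGTGtaaaggtgct
Its first base lies 92, 68 and 189 bases before the start of Eef1akmt4, Eif3f and Eif4a1, and 22 bases after the start of Eif3a.

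The eIF3 complex holds the small subunit ready for initiation. Of its 12 tested subunit genes 11 were higher in Rank-knockout (91.7%) and none was lower, beside 15.8% and 14.6% of all tested genes. Their median log2 fold change was 0.73. Eif3h (ENSMUSG00000022312; GRCm38 chromosome 15, 51786558 to 51865523, minus strand), a subunit with an MPN domain, had the highest mean level of the complex. It was counted at 377, 545, 344 and 262 CPM in WT and 505, 708, 816 and 503 CPM in Rank-knockout. The ranges overlapped, because WT replicate 2 stood above Rank-knockout replicates 1 and 4, and the gene still rose (log2 fold change 0.72, SE 0.22, edgeR adjusted p = 0.0214). Leaving out 1 library ended the call in 5 of 8 cases, namely WT replicate 1, 3 or 4 and Rank-knockout replicate 2 or 3.

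Eif3i (ENSMUSG00000028798; GRCm38 chromosome 4, 129591960 to 129600648, minus strand), a WD-repeat subunit that binds Eif3b and Eif3g, gave the smallest p of the complex. Its levels were 46.6, 51.4, 45.8 and 46.6 CPM in WT, a spread of 47.6 ± 2.59 (SD, n = 4), and 97.4, 85.2, 93.5 and 89.9 CPM in Rank-knockout, or 91.5 ± 5.22. Every Rank-knockout library was far above every WT library, and the gene rose 1.91-fold (log2 fold change 0.94, SE 0.14, edgeR adjusted p = 0.000361). Eif3j1 (ENSMUSG00000027236; GRCm38 chromosome 2, 122028546 to 122056598, plus strand), a loosely bound subunit at the mRNA entry channel, had the largest log2 fold change among the 59 tested translation factors. Its levels were 11.6, 3.04, 10.9 and 11.3 CPM in WT and 23.6, 17.3, 18.9 and 16.1 CPM in Rank-knockout (log2 fold change 1.19, SE 0.34, edgeR adjusted p = 0.0153). The groups did not overlap, and WT replicate 2 was far below the other WT libraries. Without that library the log2 fold change was 0.74 (edgeR adjusted p = 0.0302), and the call ended without Rank-knockout replicate 1 and after all libraries were thinned to the total of the shallowest. A near-identical gene, Eif3j2, had 16 counts in all and was not described, so reads could have been split or dropped between the pair.

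Eif3l rose by 0.82 (SE 0.15) on the log2 scale, from 40.7 ± 3.92 to 72.4 ± 3.78 CPM, and Eif3b, the scaffold subunit, by 0.80 (SE 0.18), both without overlap between the genotypes. Eif3g, Eif3e, Eif3a and Eif3c, of which Eif3a and Eif3c form the core of the complex, rose by 0.76, 0.73, 0.62 and 0.39 and also did not overlap. The call of Eif3c ended in 6 of the 8 fits that leave out 1 library, that of Eif3e after thinning and that of Eif3a without WT replicate 4. Eif3f and Eif3d, a cap-binding subunit, rose by 0.63 and 0.60 with overlapping libraries, and each lost its call in 4 of those 8 fits. For both of these WT replicate 2 was the highest WT library, at 418 CPM for Eif3f and 233 CPM for Eif3d. Eif3k, a subunit with a PCI domain, was the one tested member not called (log2 fold change 0.31, SE 0.15, edgeR adjusted p = 0.142), although it was called under 3 alternatives, among them that without WT replicate 2. Eif3m was too low to be tested, with 3, 2, 4 and 3 counts in WT and 23, 13, 12 and 12 in Rank-knockout, and edgeR put it at 1.56 on the log2 scale (SE 0.53, adjusted p = 0.0264) when no filter was applied.

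Among the 13 tested genes for the ternary complex, the start codon and subunit joining, 5 were higher (38.5%) and none was lower. Their median log2 fold change was 0.45, and over all tested genes 15.8% were higher and 14.6% were lower. Eif5b (ENSMUSG00000026083; GRCm38 chromosome 1, 37998010 to 38055579, plus strand), the GTPase that joins the large subunit, had the highest mean level of these genes. Its levels were 316, 352, 303 and 284 CPM in WT and 568, 469, 424 and 401 CPM in Rank-knockout, without overlap, and it rose 1.48-fold (log2 fold change 0.57, SE 0.15, edgeR adjusted p = 0.00841). Eif2s3x (ENSMUSG00000035150; GRCm38 chromosome X, 94188707 to 94212862, minus strand), the γ subunit of eIF2 that binds the initiator tRNA, had their smallest p and was counted at 12.3, 8.36, 17.8 and 15.3 CPM in WT and 35.4, 21.01, 26.5 and 25.6 CPM in Rank-knockout. It rose 2.13-fold (log2 fold change 1.09, SE 0.25, edgeR adjusted p = 0.0048), and its lowest Rank-knockout library was above its highest WT library. The Y-linked copy, Eif2s3y, had no count, so that all eIF2γ counts in these females came from the X-linked gene.

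The other eIF2 subunits did not pass the threshold. Eif2s1, the α subunit that the stress kinases phosphorylate, stood at 0.43 on the log2 scale (SE 0.27, edgeR adjusted p = 0.245) and Eif2s2, the β subunit, 0.45 (SE 0.17, 0.0543). Eif2s2 was called under 7 alternatives, among them library totals and thinning, but not with RLE size factors. Eif1a and Eif1ax, near-identical genes for the scanning factor eIF1A, rose by 0.61 and 0.69, each without overlap, and reads could be shared between them. Eif1ax was no longer called once WT replicate 1 or 4 or Rank-knockout replicate 3 was left out.

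Eif2a, which encodes a separate initiator tRNA carrier and not an eIF2 subunit, rose by 0.57 (SE 0.20, edgeR adjusted p = 0.0429) with overlapping libraries, and lost its call under 8 of the alternatives, among them DESeq2. Eif5, Eif1b, Eif2d and Eif1ad had log2 fold changes of 0.32, 0.35, 0.48 and 0.05 and were not called, though Eif1b was called under 5 alternatives and Eif5 under 3. Below 0 without being called were Eif1 at -0.14 (SE 0.14) and Eif6, which keeps the large subunit from joining too early, at -0.19 (SE 0.13). Both changed sign when library totals were used.

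eIF2B recharges eIF2 with GTP and is the step that phosphorylated eIF2α blocks. All 5 of its subunit genes were tested, and 1 was higher, or 20% beside 15.8% of all tested genes. Eif2b3 (ENSMUSG00000028683; GRCm38 chromosome 4, 117019402 to 117087306, plus strand), the γ subunit, was at 7.54, 9.88, 8.88 and 5.33 CPM in WT and 17.6, 22.5, 15.3 and 11.3 CPM in Rank-knockout. These did not overlap and gave a 2.02-fold rise (log2 fold change 1.02, SE 0.27, edgeR adjusted p = 0.011). Eif2b5, the catalytic ε subunit and the most abundant, was at 129, 175, 136 and 117 CPM in WT and 178, 202, 227 and 148 CPM in Rank-knockout. WT replicate 2 lay above Rank-knockout replicate 4, and the change was not called (log2 fold change 0.42, SE 0.16, edgeR adjusted p = 0.0607) except under 6 alternatives, among them leaving out either of these libraries. Eif2b1, Eif2b4 and Eif2b2 had log2 fold changes of 0.62, 0.33 and 0.23 and were not called, though Eif2b4 was at 0.58 and called without WT replicate 2, and both Eif2b4 and Eif2b2 were called with library totals.

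The 4 kinases of eIF2α, which lower initiation under stress, included the only translation factor gene that was lower. Eif2ak1 (ENSMUSG00000029613; GRCm38 chromosome 5, 143817788 to 143904251, plus strand), the heme-regulated kinase HRI, was at 54.1, 57.8, 62.1 and 47.3 CPM in WT and 36.7, 35.3, 33.3 and 42.97 CPM in Rank-knockout. Every Rank-knockout library was below every WT library, by a narrow margin between WT replicate 4 and Rank-knockout replicate 4. The level fell to 0.671 of WT (log2 fold change -0.57, SE 0.16, edgeR adjusted p = 0.0135), and with library totals edgeR gave -0.37 on the log2 scale and an adjusted p of 0.0806.

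The other kinases did not pass the threshold. Eif2ak2, the double-stranded RNA sensor PKR, was at 23.98, 21.5, 36.9 and 27.3 CPM in WT and 28.4, 28.1, 22.03 and 27.9 CPM in Rank-knockout (log2 fold change -0.01, SE 0.20). Eif2ak3, the endoplasmic reticulum sensor PERK, was at 17.1, 13.7, 13.7 and 19.97 CPM and 12.3, 15.8, 11.7 and 14.2 CPM (-0.23, SE 0.22). For both the libraries overlapped widely. The gene Eif2ak3, with 309 counts in all, shares bases with the small nucleolar RNA gene Gm23346, which had 110 counts. Eif2ak4, the amino acid sensor GCN2, was at 3.43, 5.83, 2.05 and 3.33 CPM and 5.94, 10.5, 10.3 and 4.74 CPM, with 133 counts in all, and its overlap came from WT replicate 2 and Rank-knockout replicate 4 (log2 fold change 0.90, SE 0.38, edgeR adjusted p = 0.0862). It was called under 5 alternatives, among them those without WT replicate 2 or without Rank-knockout replicate 4.

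Of the 10 tested genes for eIF4F and its helicase partners, 4 were higher (40%) and none was lower. Their median log2 fold change was 0.27, and the shares over all tested genes were 15.8% higher and 14.6% lower. Eif4g1 (ENSMUSG00000045983; GRCm38 chromosome 16, 20668313 to 20692884, plus strand), the main scaffold, had the highest level and was at 522, 574, 574 and 525 CPM in WT and 672, 615, 671 and 652 CPM in Rank-knockout. The groups did not overlap, but the change was small and not called (log2 fold change 0.25, SE 0.13, edgeR adjusted p = 0.153). Eif4g2, a scaffold that lacks the eIF4E-binding site, was at 301, 341, 365 and 253 CPM and 423, 359.9, 385 and 379.6 CPM, where Rank-knockout replicate 2 lay inside the WT range (log2 fold change 0.30, SE 0.14, edgeR adjusted p = 0.128). Both were called with library totals, and also when the 50 most abundant genes were kept out of the library sizes.

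Eif4a1 (ENSMUSG00000059796; GRCm38 chromosome 11, 69666936 to 69672423, minus strand), the helicase that unwinds the 5′ leader, was at 103, 108, 121 and 109 CPM in WT and 222, 167, 169 and 157 CPM in Rank-knockout. The groups were well apart, and it rose 1.63-fold (log2 fold change 0.70, SE 0.14, edgeR adjusted p = 0.00235). Its paralog Eif4a2 was at 21.2, 10.1, 24.6 and 15.3 CPM and 17.6, 13.9, 15.3 and 29.00 CPM, with Rank-knockout replicate 4 the highest of all 8 libraries, and was not called (log2 fold change 0.17, SE 0.30, edgeR adjusted p = 0.703). The difference between the changes of the 2 paralogs was not tested.

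The other genes of the group that rose did so with overlapping libraries. The cap-binding protein gene Eif4e rose by 0.52 (SE 0.19, edgeR adjusted p = 0.0494), Eif4g3 by 0.54 (SE 0.19, 0.0412) and the helicase cofactor Eif4b by 0.41 (SE 0.14, 0.0419). Their calls were lost under 10, 9 and 6 alternatives. Eif4e2, Eif4h and Eif4e3 had log2 fold changes of 0.08, 0.06 and -0.46 and were not called. The gene Eif4e3, with 459 counts in all, shares bases with the protein-coding Gm20696, which had 260 counts.

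The inhibitors that bind eIF4E were not called in either direction. Eif4ebp1, the mTORC1 target 4E-BP1, was at 4.11, 5.32, 8.88 and 5.99 CPM in WT and 10.8, 7.505, 9.89 and 5.54 CPM in Rank-knockout (log2 fold change 0.50, SE 0.32, edgeR adjusted p = 0.257). Eif4ebp2 was the most abundant, at 84.3, 63.4, 86.05 and 82.5 CPM and 79.6, 70.9, 93.97 and 84.4 CPM (log2 fold change 0.07, SE 0.15, edgeR adjusted p = 0.783), and WT replicate 2 was its lowest library. Eif4ebp3 had no count in any library. Eif4enif1, which carries eIF4E into the nucleus, had a log2 fold change of 0.04 (SE 0.22). Eif4a3, the helicase of the exon junction complex, was at 105, 209.8, 134 and 121 CPM in WT and 201, 167, 187 and 148 CPM in Rank-knockout and was not called (log2 fold change 0.29, SE 0.19, edgeR adjusted p = 0.269), with WT replicate 2 the highest of the 8 libraries. Without that library it was at 0.54 on the log2 scale and was called (edgeR adjusted p = 0.0127).

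Elongation factor genes and Eif5a, a factor for elongation and termination, held 6 higher of 7 tested (85.7%), beside 15.8% of all tested genes. Their median log2 fold change was 0.86. The group was taken by name and includes Eef1e1, a protein of the multisynthetase complex. The 6 that rose did so without overlap between the genotypes. Eef2 (ENSMUSG00000034994; GRCm38 chromosome 10, 81176631 to 81182498, plus strand), the translocase, had the highest level of all translation factors, with 44804 counts, and was the one not called. It was at 1746, 2213, 1536 and 1517 CPM in WT and 2043, 2219, 2464 and 2102 CPM in Rank-knockout. WT replicate 2 was above 2 of the Rank-knockout libraries, and the change did not pass (log2 fold change 0.33, SE 0.16, edgeR adjusted p = 0.117). Without WT replicate 2 it was 0.46 on the log2 scale (edgeR adjusted p = 0.0309), and it was also called with library totals and with the 50 most abundant genes kept out of the library sizes, but not with RLE size factors.

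The subunits of the eEF1B exchange complex, which reload eEF1A with GTP, all rose. Eef1g (ENSMUSG00000071644; GRCm38 chromosome 19, 8967041 to 8978479, plus strand), the γ subunit, was at 168, 168, 164 and 130.5 CPM in WT and 357, 308, 352 and 282 CPM in Rank-knockout. The groups were far apart, and the 2.06-fold rise had the smallest p of all translation factors (log2 fold change 1.04, SE 0.14, edgeR adjusted p = 0.000203). Eef1b2, the exchange factor β subunit, was at 421, 490.1, 453 and 314 CPM in WT and 789, 789, 1053 and 669 CPM in Rank-knockout and rose 1.96-fold (log2 fold change 0.97, SE 0.17, edgeR adjusted p = 0.000949). Eef1d, the δ subunit, rose from 177 ± 30.6 to 323 ± 75.4 CPM (SD, n = 4 each; log2 fold change 0.86, SE 0.18, edgeR adjusted p = 0.00214), and its gene shares bases on the same strand with Naprt, which had 2293 counts. Eef1e1, a small protein of the multisynthetase complex, rose by 0.95 (SE 0.33, edgeR adjusted p = 0.0397) from 138 counts in all and lost its call under 9 alternatives.

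Eef1a1, which delivers aminoacyl-tRNA and is among the most abundant proteins of a cell, had only 1424 counts, beside 14379 for Eef1b2. It was at 57.5, 49.7, 48.5 and 53.9 CPM in WT and 70.5, 83.7, 77.3 and 69.9 CPM in Rank-knockout, without overlap (log2 fold change 0.52, SE 0.15, edgeR adjusted p = 0.0129). Many processed pseudogenes copy Eef1a1, and reads that match several places can be left out, so that its level is uncertain and was not compared with other genes further. Processed copies named after Eif1, Eif3e, Eif4a1, Eif5a and Eif2s3x are also annotated, with at most 32 counts in any of these copies (Eif1-ps1), and the same limit holds for the levels of these genes. Its muscle and neuron paralog Eef1a2 had no count in any library. Eif5a was at 148, 181, 186 and 136 CPM in WT and 318, 199, 246 and 227 CPM in Rank-knockout (log2 fold change 0.60, SE 0.16, edgeR adjusted p = 0.011) and was not called once WT replicate 1 or 4 was left out. Eif5a2 had 1 count, in Rank-knockout replicate 4.

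**Figure D3:**
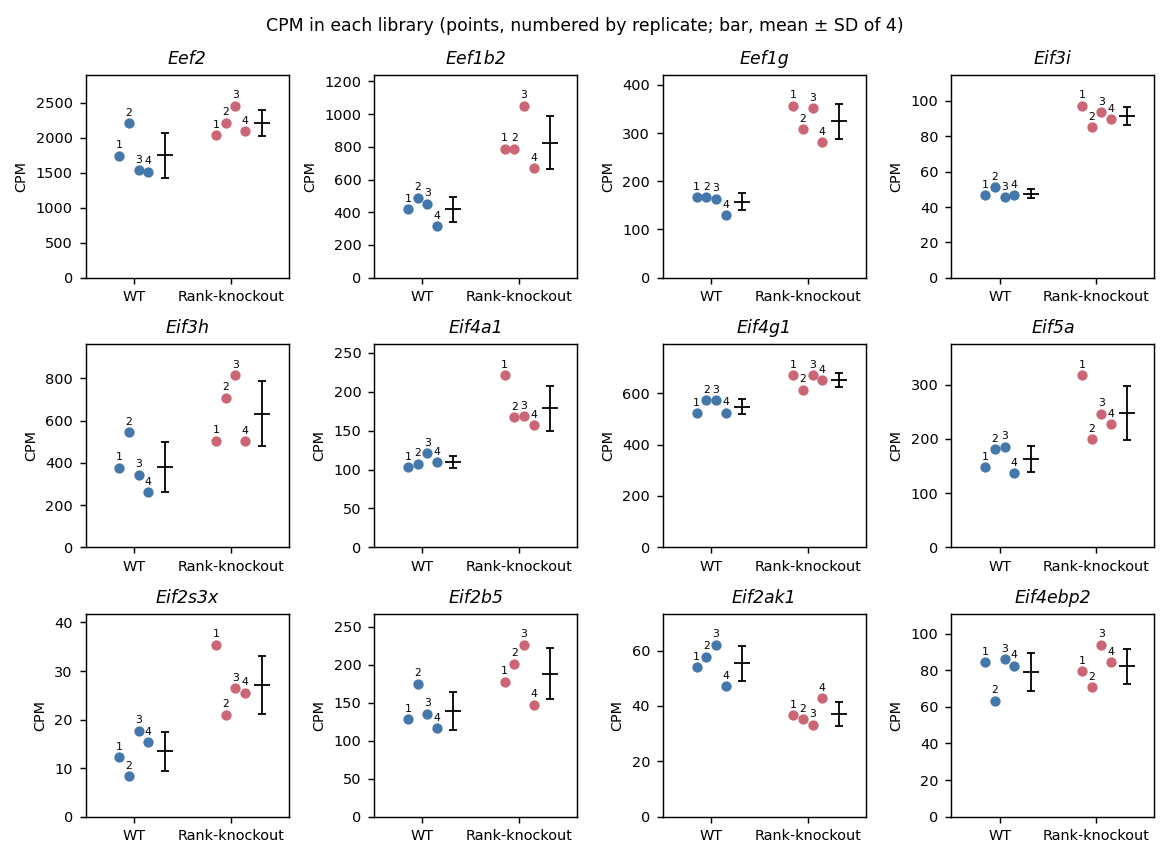
CPM (vertical axes, from 0) in each of the 4 WT (blue) and 4 Rank-knockout (red) libraries for 12 translation factor genes, with points numbered by replicate and bars for the mean ± SD. Eef1g and Eif3i show groups that are far apart, Eef2, Eif3h and Eif2b5 overlap through WT replicate 2, Eif2ak1 is the one gene with all Rank-knockout libraries below WT, and Eif4ebp2 overlaps throughout.

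Of the enzymes that modify the elongation factors, 2 of 4 tested rose (50%, beside 15.8% of all tested genes), both by more than 2-fold. Eef1akmt4 (ENSMUSG00000115219; GRCm38 chromosome 16, 20611593 to 20619011, plus strand), a lysine methyltransferase of eEF1A, was at 8.22, 8.62, 4.78 and 3.33 CPM in WT and 19.95, 10.9, 15.7 and 12.7 CPM in Rank-knockout (log2 fold change 1.17, SE 0.31, edgeR adjusted p = 0.00905). The groups did not overlap, and the call ended after thinning. Its gene shares bases on the same strand with the protein-coding Gm49333, which had no count. Eef2kmt (ENSMUSG00000022544; GRCm38 chromosome 16, 5244152 to 5255983, minus strand), a lysine methyltransferase of eEF2, was at 11.6, 13.4, 9.56 and 7.32 CPM and 24.8, 22.9, 24.7 and 17.9 CPM, without overlap (log2 fold change 1.05, SE 0.23, edgeR adjusted p = 0.00343).

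The remaining modifiers were not called. Eef2k, the kinase that stops eEF2, was at 22.6, 12.9, 17.8 and 15.98 CPM in WT and 19.95, 22.5, 22.5 and 14.8 CPM in Rank-knockout, with overlapping groups (log2 fold change 0.23, SE 0.23, edgeR adjusted p = 0.481). Eef1akmt1 did not overlap between the genotypes but was not called (log2 fold change 0.59, SE 0.26, edgeR adjusted p = 0.103), except with library totals and when the 50 most abundant genes were kept out of the library sizes. Eef1akmt2 and Eef1akmt3 had 46 and 79 counts in all and were not tested, with log2 fold changes of 0.89 and 0.62 and edgeR adjusted p of 0.409 and 0.443 without the filter. The members under 20 counts were Eif3j2 with 16, Eif5a2 with 1, and Eef1a2, Eif2s3y, Eif4e1b and Eif4ebp3 with none.

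Together the 68 genes held 0.77%, 0.88%, 0.75% and 0.67% of the counts in WT replicates 1 to 4 and 1.30%, 1.16%, 1.30% and 1.06% in Rank-knockout. No Rank-knockout library was as low as any WT library. Without Eef2 the shares were 0.52% to 0.67% in WT and 0.83% to 1.07% in Rank-knockout. A share of all counts is scaled by library totals. With TMM scaling the summed level of the 68 genes was 7162 to 9620 CPM in WT (mean 8274) and 10010 to 12300 CPM in Rank-knockout (mean 11325), also without overlap and with a smaller ratio of the means than the shares have. Libraries of the same genotype also differed from each other across these genes. The median over the 59 genes of the deviation from the mean of all libraries was -0.12 on the log2 scale in WT replicate 2, with -0.36 to -0.21 in the other WT libraries. It was 0.06 in Rank-knockout replicate 4, with 0.21 to 0.36 in the other Rank-knockout libraries. Of the 34 genes whose libraries overlapped, WT replicate 2 was the highest WT library in 16 and Rank-knockout replicate 4 the lowest Rank-knockout library in 22.

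**Figure D4:**
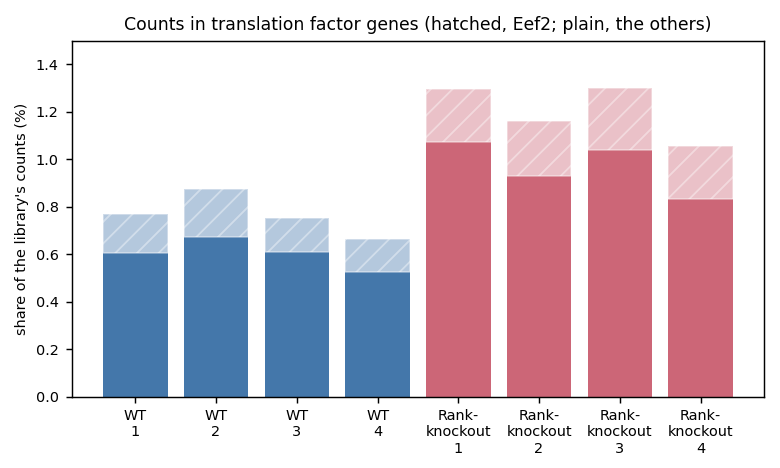
Share of each library's counts (%) that fell in translation factor genes, with Eef2 hatched and the other genes plain, for WT replicates 1 to 4 (blue) and Rank-knockout replicates 1 to 4 (red). The WT bars reach 0.67% to 0.88% and the Rank-knockout bars 1.06% to 1.30%.

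The translation factors were also set beside tested genes of similar level. Among genes with a mean of 300 CPM or more, 5 of 8 translation factors were higher, with a median log2 fold change of 0.59, beside 12.6% and -0.30 for all 634 tested genes of that level. Between 100 and 300 CPM these were 8 of 19 and 0.39, beside 14.8% and -0.13 of 1413 genes. Between 30 and 100 CPM they were 8 of 12 and 0.53, beside 18.4% and -0.01. Between 10 and 30 CPM 7 of 15 were higher, with a median of 0.48, beside 16.8% and 0.10. Below 10 CPM 1 of 5 was higher, beside 11.96% of 1873 genes.

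The counts depended on the scaling. With RLE size factors 28 genes were higher and 1 was lower, and with DESeq2 and limma-voom 25 and 27 were higher. With library totals, where 41 were higher, over all genes the share of higher among called genes went from 52.0% to 74.9% and the median of all genes shifted by 0.20. When the 50 most abundant genes were kept out of the library sizes, 39 were higher and 1 was lower, with a shift of 0.13 and a share of 68.1%. A change of library sizes moves all genes by nearly the same amount, and so moves the median of the translation factors together with that of all tested genes. Under every alternative 14 genes were called higher, namely Eef1a1, Eef1b2, Eef1d, Eef1g, Eef2kmt, Eif1a, Eif2b3, Eif2s3x, Eif3b, Eif3g, Eif3i, Eif3l, Eif4a1 and Eif5b.

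**Figure D5:**
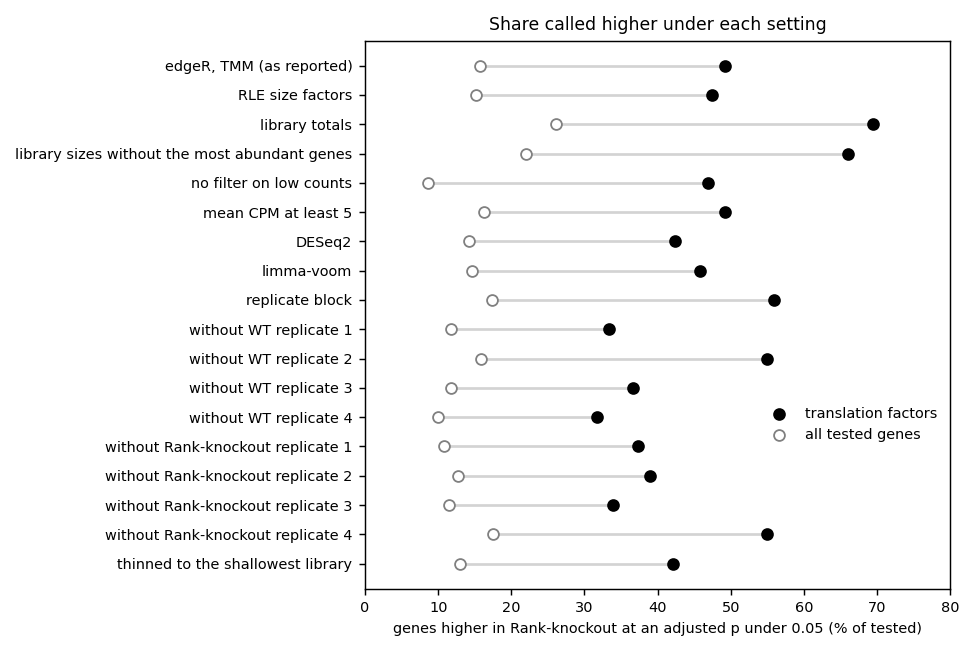
Share of tested genes (%) called higher in Rank-knockout at an adjusted p under 0.05, under the reported fit and each alternative, for the translation factors tested under each (black) and for all tested genes (open). The black points run from 31.7% without WT replicate 4 to 69.5% with library totals and lie to the right of the open point in every row.

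Genes that work beside these factors were counted from further lists. Of the 49 listed genes 41 were tested, 12 were higher (29.3%) and 1 was lower (2.44%), beside 15.8% and 14.6% of all tested genes, with a median log2 fold change of 0.31. In the list for termination and ribosome recycling 3 of 4 were higher: the recycling ATPase gene Abce1 rose by 0.96 (SE 0.20, edgeR adjusted p = 0.00264), the release factor genes Etf1 and Gspt1 rose by 0.62 and 0.53, and Hbs1l was at -0.09. Among poly(A)-binding, scanning and reinitiation partners 4 of 10 were higher (40.0%) and 1 was lower (10%), the latter share below that of all tested genes. Denr, a reinitiation factor, rose by 0.60 (SE 0.16, edgeR adjusted p = 0.00889), and the helicase gene Ddx3x fell by 0.37 (SE 0.13, 0.046).

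Of 11 genes for mTORC1 and its regulators, S6 kinase and the MNK kinases 1 was higher, or 9.09% beside 15.8% of all tested genes, the S6 kinase gene Rps6kb1, which rose by 0.47 (SE 0.17, edgeR adjusted p = 0.0447), and the median was 0.08. Neither regulatory subunit gene of the eIF2α phosphatase was called, with Ppp1r15b at -0.50 (SE 0.19, edgeR adjusted p = 0.0577) and Ppp1r15a at -0.29. Of 6 genes that make the hypusine of eIF5A and the diphthamide of eEF2, 2 were higher (33.3%), with the smallest p for Dph5 (log2 fold change 0.89, SE 0.22, edgeR adjusted p = 0.00747). Of 8 mitochondrial translation factor genes 2 were higher (25%), Tsfm by 1.24 (SE 0.29) and Gfm1 by 0.93 (SE 0.23). For comparison, 58 of 65 tested cytosolic ribosomal protein genes were higher and none was lower, with a median log2 fold change of 0.99, and the difference between that list and the translation factors was not tested.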

How the data were processed

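Total RNA of intestinal epithelial cells was made into QuantSeq 3′ mRNA-seq libraries by the authors. Per the study's methods, reads were trimmed, cleared of ribosomal, mitochondrial and adapter sequence, aligned to GRCm38 with STAR under an Ensembl annotation, and assigned to genes in the sense direction by featureCounts. The deposited values are raw counts per gene with no normalization. The methods name no molecular identifiers, so counts can hold PCR copies and counting error is only part of the error. Of 54532 gene identifiers, 54495 were given symbols from GENCODE M21, which is of the same build.

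The quasi-likelihood F-test of edgeR 4.0.16 (R 4.3.3, robust fit) was run on the counts that passed filterByExpr, with TMM factors and a model of genotype alone. Benjamini-Hochberg adjustment covered all 9855 tested genes, the threshold was 0.05, and SE came from the F statistic. Labels do not say whether libraries are separate animals, so p values measure the spread between these libraries. Alternatives changed the scaling (RLE, library totals, or library sizes that leave out the 50 most abundant genes), the filter (none, or a mean of 5 CPM), the tool (limma-voom from limma 3.58.1, and DESeq2 1.42.0), the model (a replicate block) and the libraries (thinned to 1530781 counts, or each left out in turn).

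The genes, the lists, the roles and the tests were chosen with earlier results of these data known, so no list was tested as a set. Every gene with at least 20 counts is named or counted. Library values are given for the most abundant gene of each role, its called gene with the smallest p in each direction, called genes past 2-fold without overlap, and, whatever their values, the eIF4E-binding proteins, Eef2k, the eIF2α kinases and 4 paralog pairs. Eef1b2 was added after its values were seen. Genes of the other lists are named for the smallest p in each direction, with a few added after their values were seen. Gcn1 was not found under that symbol. Promoter sequences are from RefSeq.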

Additional observations from a re-analysis of the deposited data

Results flagged for a closer look

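Among 55 sets of 4 values examined, 7 held a library far from the other 3. About 1 in 20 sets of continuous values would do so by chance, but a single count beside values of 0, as in Eif5a2, always does, so that the number was not compared with that rate. Total counts of WT replicate 2 were 4335653, against 1530781 to 1616024 in the other WT libraries. In the same library Eif3i was high at 51.4 CPM, against 45.8 to 46.6, while Eif3j1 was low at 3.04 CPM, against 10.9 to 11.6, and Eif4ebp2 was low at 63.4 CPM, against 82.5 to 86.0. Eef1g was low in WT replicate 4 at 130.5 CPM, against 163.9 to 167.8 in the other WT libraries. Eif2ak2 was low in Rank-knockout replicate 3 at 22.03 CPM, against 27.9 to 28.4. Eif5a2 was counted once, in Rank-knockout replicate 4, at 0.264 CPM, and was at 0 in the other libraries.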

How the results depend on the processing

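The number of translation factors called higher was 29 and stayed within 1.5 times that number under every alternative that keeps all libraries. It was 25 with DESeq2, 27 with limma-voom, 28 with RLE, 30 without the filter, 29 with a mean CPM of at least 5, 24 after thinning, 39 with library sizes that leave out the 50 most abundant genes and 41 with library totals. Leaving out 1 library gave 19 (without WT replicate 4) to 33 (without WT replicate 2, or without Rank-knockout replicate 4), and 1 gene was lower each time. With library totals 0 genes were lower, and the median log2 fold change was 0.72, and 0.65 when the 50 most abundant genes were kept out of the library sizes, against 0.52 in the reported fit; the change of scaling itself raised the median of all genes by 0.20 and 0.13. The median was 0.44 without Eef1a1, Eif1a, Eif1ax, Eif2s3x, Eif3j1, Eif4a1 and Eif5a, the tested genes listed as having near-identical copies. Each of these was above the median of 0.52, and Eif1 and Eif3e were not on that list. Over all genes with at least 20 counts and no filter the median was 0.57. Sign changes were limited to genes not called. With library totals Eif1 was at 0.056, Eif6 at 0.0099 and Eif2ak2 at 0.19, and Eif2ak2 was also positive with those genes kept out (0.12), without the filter (0.028), with limma-voom (0.039) and after thinning (0.11); the cause was not tested. Over libraries left out, the sign also turned for Eif1ad (-0.060 to 0.14), Eif2ak2 (-0.14 to 0.14), Eif4a2 (-0.11 to 0.36), Eif4e2 (-0.019 to 0.23), Eif4ebp2 (-0.045 to 0.13), Eif4enif1 (-0.097 to 0.18) and Eif4h (-0.021 to 0.12). Of the 29 genes called higher 14 were called under every alternative, and of the 29 not called 16 were never called. The deviations of same-numbered libraries had r = 0.05, 0.15, -0.14 and 0.32 for numbers 1 to 4, not all above 0.1, so that the numbers were not taken to pair the libraries; some libraries, among them both of number 4, correlated best with their own number and others did not, and with the replicate block 33 genes were higher and 1 was lower, with a median of 0.51. Over all tested genes 2566 were higher and 859 lower with library totals, against 1555 and 1438 in the reported fit, and leaving out 1 library gave 1020 to 1723 higher and 1097 to 1564 lower. Counts are few for the genes below 10 CPM, of which 5 were tested, and the effect of depth at that level was not tested.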
